A study of Homo sapiens with 12 samples.

Results

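Genes for enzymes that add or remove histone methyl and acetyl groups were followed through OCT4 depletion in human embryonic stem cells. Members were taken by symbol: every gene on the array whose name begins with KMT, SETD, KDM, PRMT or HDAC, or with KAT or SIRT and a number. This gave 68 of the 18852 named genes, measured by 101 probes, of which 67 code for proteins and 1, HDAC11-AS1, is an antisense RNA. The protein-coding members were 18 lysine methyltransferases (KMT and SETD), 15 demethylases (KDM), 8 arginine methyltransferases (PRMT), 8 acetyltransferases (KAT), 11 zinc-dependent deacetylases (HDAC) and 7 sirtuins (SIRT). The brightest probe stood for each gene, and a gene was tested when its probe was detected (detection p under 0.01) on at least 3 of 12 arrays. That left 50 members among 10506 genes tested, and 42 of these were detected on every array.

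The cells were H1, an established line of human embryonic stem cells. Knockdown cells received an shRNA against OCT4 and control cells an shRNA against luciferase, 2 ug with Fugene in each case, and both were harvested at 2 or at 3 days. The 4 groups (knockdown day 2, control day 2, knockdown day 3, control day 3) held 3 Illumina bead arrays each, a number that limits the precision. The study set out to find mRNAs that OCT4 controls. The labels name 1 cell line and no other OCT4 shRNA, so loss of OCT4 cannot be told apart from other effects of this shRNA. They do not say whether replicates were separate cultures, so p-values here reflect how far these samples differed, and that spread can be technical.

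Histone lysine methyltransferases place methyl groups on particular lysines of histones H3 and H4, and demethylases take them off, mostly through an iron-dependent JmjC domain. Acetyltransferases neutralise lysine charge, which loosens chromatin, and deacetylases and the NAD-dependent sirtuins reverse this. Most of these proteins work inside large complexes whose other subunits direct them to promoters or enhancers, and in embryonic stem cells they help to hold lineage genes in a poised state. The names do not all stand for histone enzymes: SETD3 methylates actin, HDAC6 acts on tubulin, and SIRT4 and SIRT5 lie in mitochondria.

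POU5F1, the gene for OCT4, checks the labels. At day 2 its normalised log2 intensity was 10.73, 11.01 and 10.34 on the knockdown arrays, against 13.14, 12.92 and 12.69 on the control arrays, a change of -2.23 (SE 0.19), or 21.4% of the level in control cells. At day 3 it was 9.95, 10.52 and 10.29 on the knockdown arrays, against 13.09, 13.25 and 13.29 on the control arrays, a change of -2.96 (SE 0.19), or 12.9%. The groups lay far apart on both days. Detected probes numbered 13343 to 14969 of 48803 per array. The first principal component, with 56.5% of the variance, separated knockdown from control arrays. On the second, with 17.1%, the replicate 3 array had the highest value of every group. Within knockdown day 2 all 3 arrays were spread out on it (3.0, -18.1 and 24.0 for replicates 1, 2 and 3). The counts of called members were therefore also made without replicate 3 of every group, a fit added after the arrays were seen.

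The promoters of 4 members are shown: KAT7 and SETD4, because they were called lower on both days, and KMT5A and SIRT4, because they were the 2 called higher at day 3. Each runs from 250 bases before to 50 bases after the gene's first listed start, 5′ to 3′ on the gene's strand, from RefSeq on GRCh38.p14. Capitals mark every match to the octamer bound by OCT4 and its relatives (ATGCAAAT), to the CCAAT box (CCAAT) and to the GC box (GGGCGG), on either strand. The windows are KAT7 at chr17:49788431-49788730 on the plus strand, SETD4 at chr21:36060477-36060776 on the minus strand, KMT5A at chr12:123383882-123384181 on the plus strand and SIRT4 at chr12:120291939-120292238 on the plus strand.
KAT7: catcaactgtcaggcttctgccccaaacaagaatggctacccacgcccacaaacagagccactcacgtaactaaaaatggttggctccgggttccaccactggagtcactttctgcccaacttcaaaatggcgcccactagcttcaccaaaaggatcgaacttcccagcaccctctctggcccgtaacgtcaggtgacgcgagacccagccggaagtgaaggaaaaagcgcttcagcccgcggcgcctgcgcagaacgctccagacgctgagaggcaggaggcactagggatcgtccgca
SETD4: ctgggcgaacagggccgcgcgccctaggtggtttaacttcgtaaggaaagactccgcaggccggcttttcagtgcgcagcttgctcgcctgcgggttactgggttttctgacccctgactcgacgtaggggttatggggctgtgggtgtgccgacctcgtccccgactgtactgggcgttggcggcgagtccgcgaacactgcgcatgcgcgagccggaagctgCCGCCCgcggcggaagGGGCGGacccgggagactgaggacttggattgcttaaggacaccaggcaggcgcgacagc
KMT5A: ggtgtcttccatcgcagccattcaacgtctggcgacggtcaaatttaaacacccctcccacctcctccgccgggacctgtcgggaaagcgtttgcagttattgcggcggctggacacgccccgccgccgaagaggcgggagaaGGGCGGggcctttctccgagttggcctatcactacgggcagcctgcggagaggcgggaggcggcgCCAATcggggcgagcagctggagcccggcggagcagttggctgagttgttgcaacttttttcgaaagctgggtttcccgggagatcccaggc
SIRT4: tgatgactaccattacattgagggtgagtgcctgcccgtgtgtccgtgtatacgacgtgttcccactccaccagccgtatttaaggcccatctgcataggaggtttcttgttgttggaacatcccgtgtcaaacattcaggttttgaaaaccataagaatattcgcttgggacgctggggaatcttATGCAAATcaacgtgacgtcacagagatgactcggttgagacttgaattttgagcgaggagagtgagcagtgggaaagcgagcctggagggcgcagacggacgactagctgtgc

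The SIRT4 window holds the octamer on the plus strand, starting 64 bases before the start site. The KMT5A window has 1 CCAAT box and 1 GC box, the SETD4 window has 2 GC boxes, and the KAT7 window has none of the motifs searched. A window was listed for 46 of the 50 tested members. SIRT4 was the 1 member with the octamer, or 2.17% of 46, beside 1.36% of the 8609 windows of all tested genes (117 windows). None of the 11 members lower at day 3 had an octamer in this window, which says nothing of sites elsewhere. CCAAT boxes stood in 14 member windows (30.4%, against 37.2% of the windows of all tested genes) and GC boxes in 31 (67.4%, against 70.7%). Median GC content was 65.0% in member windows and 65.3% over all tested genes. A match is a string of letters and not a measured binding site. The CCAAT and GC boxes were chosen after the array values were known.

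At day 2, 2 of the 50 tested members passed an adjusted p of 0.05 in the limma fit across all genes, both lower in knockdown cells: the acetyltransferase KAT7 and the SET-domain methyltransferase SETD4. That was 4.0% of members, where 8.66% of all genes tested were called (910 genes, 5.69% higher and 2.97% lower). No member was called higher, and at an unadjusted p under 0.05 there were 2 higher and 3 lower. Knockdown and control arrays did not overlap for 7 members (14.0%), fewer than the 24.1% of all genes. The median change of the members was -0.09, against -0.04 over all genes, and 34 of 50 changes were negative. The members' median was -0.03 without knockdown replicate 3 of day 2 (-0.02 over all genes), -0.14 without knockdown replicate 1 (-0.03 over all genes) and -0.05 among members detected on all arrays (-0.04). The counts of calls were the same without replicate 3.

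At day 3, 13 members were called, or 26.0%, where 29.6% of all genes tested were called, so the share of members was close to that of all genes. Of these, 11 were lower in knockdown cells (22.0%, against 15.3% of all genes) and 2 were higher (4.0%, against 14.3%). The 11 were KAT7, PRMT6, PRMT5, PRMT3, KDM2B, KDM8, KDM4A, SIRT5, SIRT1, SETD4 and SETDB2, and the 2 were KMT5A and SIRT4. None changed 2-fold or more on either day, a size that 3.43% of all genes passed together with the test at day 2 and 9.70% at day 3, and the largest change at day 3 was -0.84, of PRMT6. Groups did not overlap for 21 members (42.0%), close to the 43.0% of all genes. The median change was -0.18, against -0.07 over all genes, and 37 of 50 were negative, against 5948 of 10506. With the authors' own log2 values in place of the normalised intensities the split was 3 higher and 8 lower, beside 1697 higher and 1240 lower over all genes, and the members' median was -0.11, against -0.01. Without replicate 3 it was 0 higher and 10 lower, where 26.5% of all genes were called. Arrays that share a replicate number moved together at day 3, and with that number as a block the split was 4 higher and 15 lower, where 43.1% of all genes were called (2032 higher and 2501 lower).

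**Figure D1:**
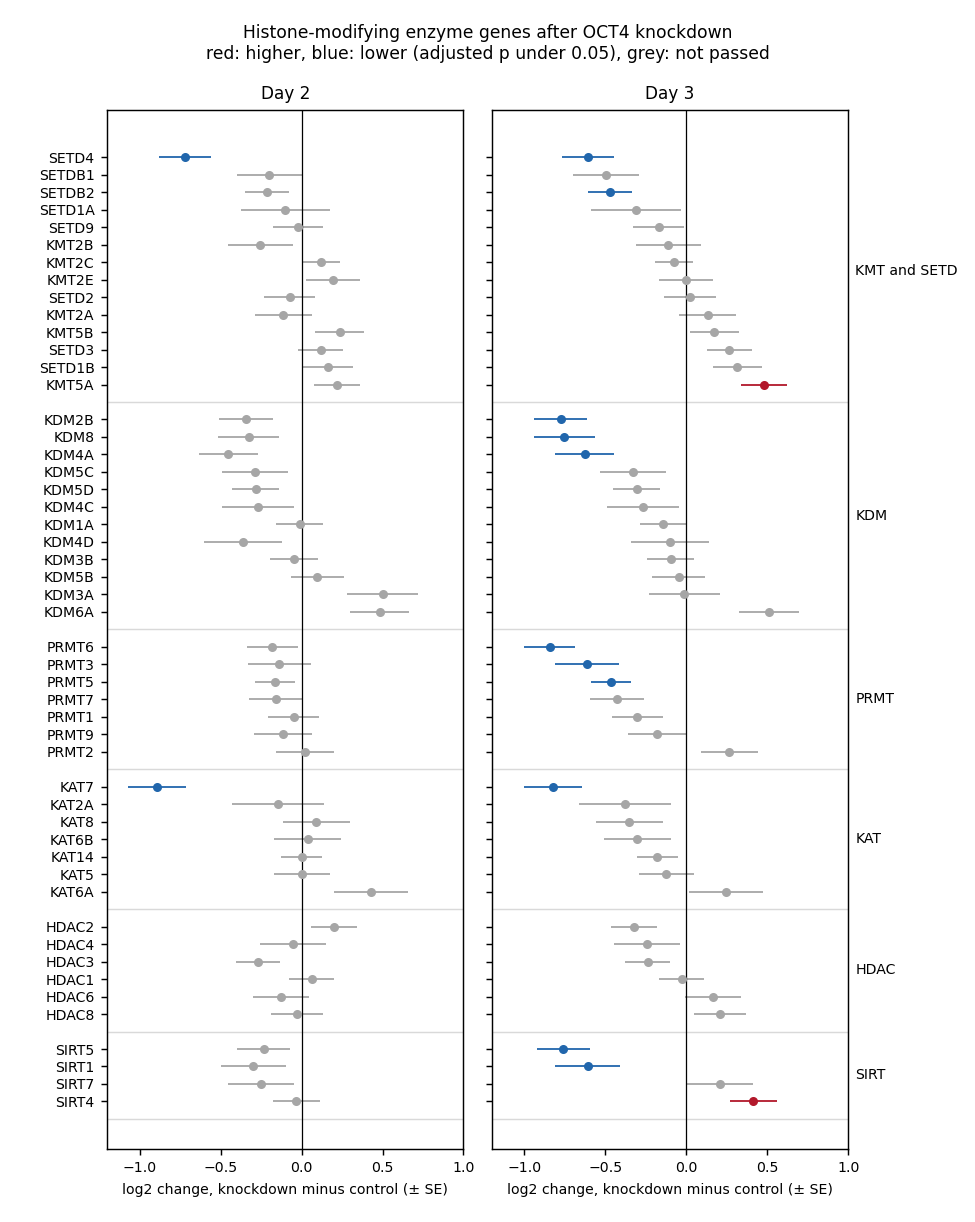
Change of every tested member in log2 units, knockdown minus control, at day 2 (left) and day 3 (right), grouped by enzyme class; points are fitted changes from 3 arrays a group and bars are 1 standard error. At day 2 the 2 blue points are KAT7 and SETD4, and at day 3 there are 11 blue points and 2 red ones, KMT5A and SIRT4; KDM8 and KDM4D were detected on no knockdown array of day 3 and KDM4C on no control array of day 2, so those points are fitted values that rest on signal near background.

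Listed marker genes of cell types and of the cell cycle also changed between the same arrays. Over all genes, 8.66% were called at day 2 and 29.6% at day 3. Of 14 tested markers of pluripotent cells, 10 were lower at day 2 and 12 at day 3. Their summed level at day 3 was 26850 to 34967 on knockdown arrays and 61978 to 64830 on control arrays. Counts and sum include POU5F1, the target of the shRNA. All 6 tested endoderm markers were higher on both days (15250 to 18950 on knockdown arrays and 685 to 1628 on control arrays at day 3). At day 3, 6 of 9 mesoderm markers were higher and 2 lower (7223 to 8570, against 763 to 1658). Of 11 stromal markers 8 were higher and 1 lower (56475 to 72510, against 30300 to 34583), with DCN, FAP and POSTN detected on no array. Of 5 trophoblast markers 3 were higher (1367 to 1718, against 671 to 879), with GATA2, CGA, CGB3 and ELF5 on no array. Both tested neuroectoderm markers were higher (3162 to 4419, against 1585 to 2062), with PAX6, SOX1, SIX3 and LHX2 on no array. Of 12 cell cycle genes 6 were lower at day 3 (28093 to 31579, against 40288 to 41324) and 1 at day 2 (34748 to 39736, against 36704 to 40216). The part of these shifts in the changes of the enzyme genes was not tested. In bulk RNA, fewer cells that express a gene and less RNA per cell cannot be told apart.

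Arginine methyltransferases had the lowest median of the 6 classes at day 3, -0.43, with 3 of 7 tested members lower, none higher and 6 of 7 changes negative. The 3 were 42.9% of those tested, where 29.6% of all genes were called (15.3% lower). Differences between classes were not tested. At day 2 their median was -0.14 and none was called, nor did any reach an unadjusted p under 0.05. PRMT6, which dimethylates H3 at arginine 2, had log2 intensities of 9.38, 9.54 and 9.28 on the knockdown arrays of day 3, against 10.28, 10.02 and 10.44 on the control arrays. The change was -0.84 (SE 0.16, adjusted p = 0.00130), and every knockdown array lay below every control array. At day 2 the values were 9.79, 10.03 and 9.81 in knockdown cells, against 9.80, 10.27 and 10.09 in control cells, a change of -0.18 (adjusted p = 0.6) with groups that overlapped. The other detected PRMT6 probe gave -0.86 at day 3 (adjusted p = 4e-04, with every kept probe tested on its own).

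PRMT5, the main enzyme of symmetric arginine dimethylation, read 10.24, 10.49 and 10.32 on the knockdown arrays of day 3, against 10.84, 10.81 and 10.80 on the control arrays. It fell by 0.47 (SE 0.12, adjusted p = 0.0111), and its other probe by 0.53. The groups stood apart, with control arrays nearly equal. The PRMT5 call was lost when knockdown replicate 1 of day 3 was left out (adjusted p = 0.0524). PRMT3, a cytosolic enzyme whose known substrate is a ribosomal protein, read 9.74, 9.81 and 9.31 on the knockdown arrays of day 3, against 10.39, 10.14 and 10.17 on the control arrays, and fell by 0.61 (SE 0.20, adjusted p = 0.0301). That call was lost when knockdown replicate 3 or control replicate 1 or 2 of day 3 was left out, with an adjusted p of up to 0.120. PRMT7, which leaves a single methyl group, changed by -0.43 without passing (adjusted p = 0.0728, or 0.0289 with the replicate block). PRMT1, the main enzyme of asymmetric dimethylation, changed by -0.30 (adjusted p = 0.170) and PRMT9 by -0.18. PRMT2 was the exception in sign: its 3 probes gave 0.27, 0.45 and 0.29, none called. At day 2 the PRMT2 probes differed in sign (0.02, -0.09 and -0.06), none called. PRMT8, which is known from neurons, was detected on no array.

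Among the acetyltransferases KAT7 alone was called, on both days, out of 7 tested. That was 14.3% of the class, where 8.66% of all genes were called at day 2 and 29.6% at day 3. KAT7 (HBO1) acetylates H3 and H4 together with scaffold proteins of the JADE and BRPF families. Its log2 intensity at day 2 was 5.24, 5.40 and 5.90 on the knockdown arrays, against 6.10, 6.61 and 6.51 on the control arrays, a change of -0.89 (SE 0.18, adjusted p = 0.00586). At day 3 it was 5.69, 5.66 and 5.80 on the knockdown arrays, against 6.55, 6.46 and 6.61 on the control arrays, a change of -0.82 (SE 0.18, adjusted p = 0.00345). The groups did not overlap on either day. The probe is dim: it was detected on 1 of 3 knockdown arrays and on 3 of 3 control arrays on each day, so the fitted change rests partly on signal near background.

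The other acetyltransferases did not pass at day 3: KAT2A of the SAGA complex changed by -0.38, KAT8, which acetylates H4 at lysine 16, by -0.35, KAT6B by -0.30, KAT14 by -0.18, KAT5 (TIP60) by -0.12 and KAT6A by 0.24. KAT2A came to an adjusted p of 0.0208 with the replicate block, where 0.357 stood without it. Its replicate 3 arrays were the lowest of every group, 9.49 on the knockdown array and 9.72 on the control array of day 3. The class had a median of -0.30 at day 3, with 6 of 7 changes negative, and of 0.00 at day 2. KAT2B was detected on no array. The 3 kept KAT5 probes differed in sign at day 2 (0.0024, -0.053 and -0.11), none called.

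Of the demethylases, 3 of 12 tested were lower at day 3 and none was higher, while none was called at day 2 (at an unadjusted p under 0.05 there were 2 higher and 1 lower at day 2). Among all genes tested, 29.6% were called at day 3 (15.3% lower) and 8.66% at day 2. The share of demethylases called was thus below that of all genes on both days. KDM2B, which binds unmethylated CpG islands, brings a variant Polycomb complex there and can demethylate H3K36, read 11.86, 11.91 and 11.67 on the knockdown arrays of day 3, against 12.55, 12.53 and 12.70 on the control arrays. It fell by 0.78 (SE 0.17, adjusted p = 0.00310), with a clear gap between the groups. At day 2 it read 12.03, 12.31 and 11.82 in knockdown cells, against 12.39, 12.66 and 12.12 in control cells, and the change of -0.34 did not pass (adjusted p = 0.270). The day 2 groups overlapped.

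KDM8, a JmjC oxygenase, was detected on none of the knockdown arrays of day 3 (5.20, 5.42 and 5.37), against 2 of 3 control arrays (6.19, 5.75 and 6.31). Its level was at least 1.20-fold lower in knockdown cells. This bound uses the lowest detected signal of each array in place of the dim values and was not itself tested. The limma fit of the values as measured gave an adjusted p of 0.00843. KDM4A, an eraser of H3K9 and H3K36 trimethylation, read 6.55, 6.25 and 6.65 on the knockdown arrays of day 3, against 6.80, 7.15 and 7.37 on the control arrays, and fell by 0.63 (SE 0.18, adjusted p = 0.0195). The KDM4A groups came within 0.15 of each other, and its call was lost without knockdown replicate 2 or control replicate 2 or 3 of day 3, under median scaling and with the authors' values (adjusted p up to 0.0844).

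KDM6A (UTX), an eraser of H3K27 methylation, had the largest positive change of any member at day 3 and narrowly missed the threshold. It read 10.09, 9.95 and 10.00 on the knockdown arrays of day 3, against 9.59, 9.26 and 9.65 on the control arrays, a change of 0.51 (SE 0.18, adjusted p = 0.0511). The groups did not overlap, nor did they at day 2, where the change was 0.48 (adjusted p = 0.142). At day 3 KDM6A passed in 9 of 23 alternative fits, the replicate block among them (adjusted p = 0.0189). The H3K4 demethylases KDM1A (LSD1), KDM5B, KDM5C and KDM5D gave -0.14, -0.05, -0.33 and -0.31, none called; KDM5D passed with the replicate block (adjusted p = 0.0346). The H3K9 demethylases KDM3A, KDM3B and KDM4C gave -0.01, -0.10 and -0.27, none called. KDM4C and KDM4D were each detected on 3 arrays, and KDM4D on none of the knockdown arrays of day 3, so no fold is given for it there. At day 2 KDM3A gave 0.50 (adjusted p = 0.218). KDM1B was detected on no array, and KDM4B and KDM6B on 1 array each.

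**Figure D2:**
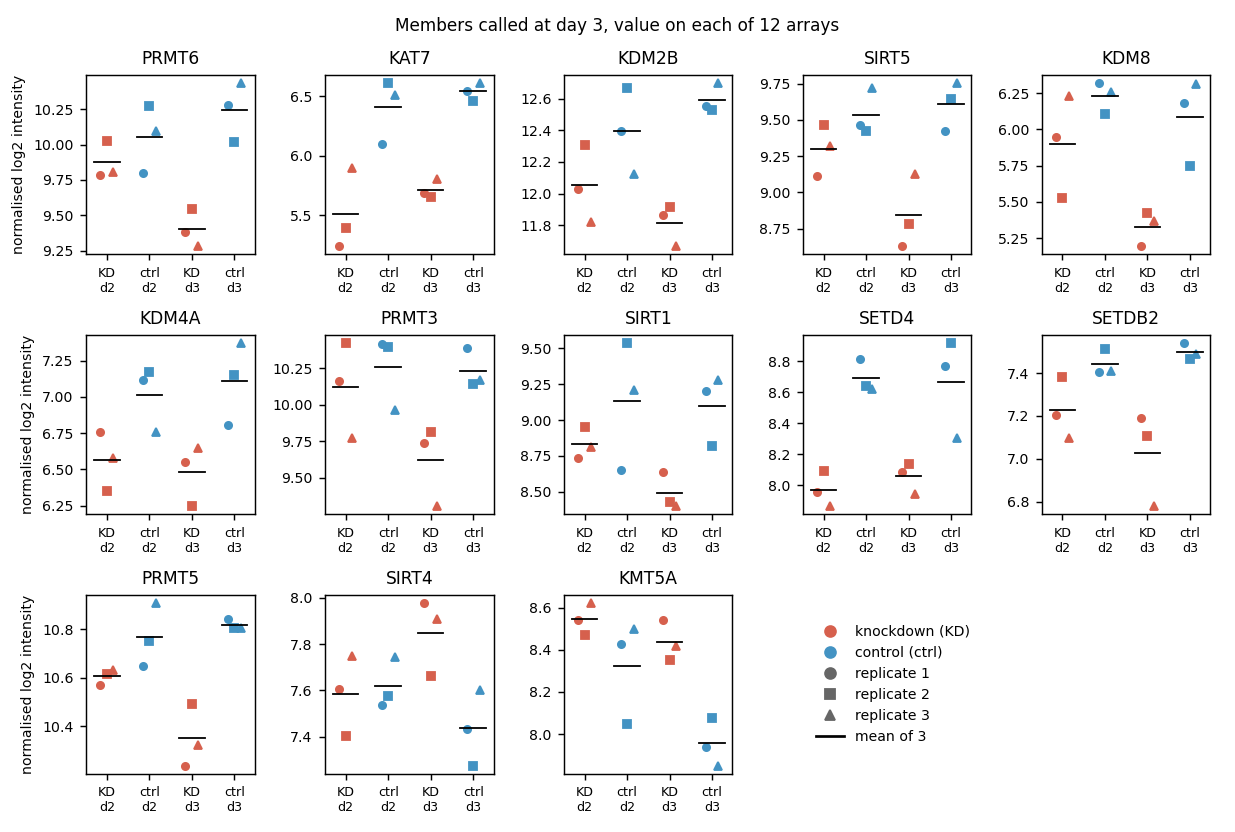
Normalised log2 intensity of the 13 members called at day 3 on each of 12 arrays, knockdown (red) left of control (blue) within each day, with marker shapes for replicate numbers and bars for the mean of 3; each panel has its own axis. KAT7 and SETD4 are separated on both days, while PRMT6, KDM2B and SIRT5 are separated at day 3 with overlap at day 2.

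Lysine methyltransferases were the largest class and had a median change of -0.04 at day 3, with 1 of 14 tested higher and 2 lower. These were 21.4% of those tested, where 29.6% of all genes were called. SETD4 read 7.96, 8.09 and 7.87 on the knockdown arrays of day 2, against 8.81, 8.64 and 8.62 on the control arrays, and fell by 0.72 (SE 0.16, adjusted p = 0.0113). At day 3 it read 8.09, 8.14 and 7.94 on the knockdown arrays, against 8.77, 8.92 and 8.31 on the control arrays, and fell by 0.61 (SE 0.16, adjusted p = 0.0107). The 3 knockdown arrays were the lowest of the 6 on each day. The day 2 call was lost without control replicate 1 (adjusted p = 0.0551) and the day 3 call without control replicate 2 (adjusted p = 0.0556).

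SETDB2, an H3K9 methyltransferase, read 7.19, 7.11 and 6.78 on the knockdown arrays of day 3, against 7.54, 7.47 and 7.49 on the control arrays, and fell by 0.47 (SE 0.14, adjusted p = 0.0192). It passed in 18 of 23 alternatives and missed without knockdown replicate 3 or control replicate 1 of day 3, without replicate 3 of every group, under median scaling and with the authors' values. SETDB1, the H3K9 methyltransferase that silences retroelements, changed by nearly as much, -0.50, but its arrays spread more and it did not pass (adjusted p = 0.0835). It read 8.03, 8.00 and 8.51 on the knockdown arrays, against 8.37, 8.75 and 8.90 on the control arrays. Within each replicate number the knockdown array was the lower, and with the replicate block the adjusted p was 0.00617.

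KMT5A (SET8), the enzyme of H4K20 monomethylation, was 1 of the 2 members called higher. It read 8.54, 8.35 and 8.42 on the knockdown arrays of day 3, against 7.94, 8.08 and 7.85 on the control arrays, a rise of 0.48 (SE 0.14, adjusted p = 0.0209). At day 2 the change was 0.22 (adjusted p = 0.438). Between the days KMT5A changed by -0.37 on control arrays (adjusted p = 0.349) and by -0.11 on knockdown arrays, so the larger of these differences lay between the control groups. The day 3 call passed in 19 of 23 alternatives and was lost without knockdown replicate 1 or control replicate 1 or 3 of day 3. KMT5B, which adds further methyl groups at H4K20, gave 0.17 and was not called.

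None of the 5 tested H3K4 methyltransferases was called at either day, and none reached an unadjusted p under 0.05. Over all genes, 8.66% were called at day 2 and 29.6% at day 3. At day 3 SETD1A changed by -0.31, SETD1B by 0.32, KMT2A (MLL1) by 0.13, KMT2B by -0.11 and KMT2C by -0.08. SETD1B passed in 1 of 22 alternatives, the replicate block (adjusted p = 0.0401). SETD2, which trimethylates H3K36, changed by 0.02, KMT2E by 0.00 and SETD9 by -0.17. For SETD3 the brightest probe gave 0.26 and another -0.13, opposite in sign with neither called. KMT2D, KMT5C, SETD6 and SETD7 were detected on no array.

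None of the 6 tested zinc-dependent deacetylases was called at either day, where 8.66% of all genes were called at day 2 and 29.6% at day 3. At an unadjusted p under 0.05 there was 1 at day 3 and 0 at day 2. HDAC1, a catalytic subunit of the NuRD, SIN3 and CoREST complexes, read 12.99, 13.13 and 13.12 on the knockdown arrays of day 3, against 12.94, 13.23 and 13.15 on the control arrays, a difference of -0.03 (SE 0.14, adjusted p = 0.905). Its groups covered the same range. HDAC2, its partner in the same complexes, read 11.93, 12.00 and 11.57 on the knockdown arrays, against 12.19, 12.10 and 12.18 on the control arrays, without overlap but short of the threshold (-0.32, SE 0.14, adjusted p = 0.105). At day 2 HDAC2 differed by 0.20 in the other direction (adjusted p = 0.479). HDAC3, the deacetylase of the NCoR complex, changed by -0.24 at day 3, HDAC4 by -0.24, HDAC6 by 0.16 and HDAC8 by 0.21. HDAC5, HDAC7, HDAC10 and HDAC11-AS1 were detected on no array, and HDAC9 and HDAC11 on 1 array each.

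Sirtuins were split. SIRT5, which removes succinyl and malonyl groups in mitochondria, read 8.63, 8.78 and 9.13 on the knockdown arrays of day 3, against 9.43, 9.64 and 9.75 on the control arrays, and fell by 0.76 (SE 0.16, adjusted p = 0.00328). All knockdown arrays were below all control arrays. Its other kept probes gave -0.46 (adjusted p = 0.0596) and -0.04 (adjusted p = 0.875), so the probes gave unequal sizes. At day 2 the SIRT5 probes differed in sign: the brightest gave -0.23 and the others -0.08 and 0.03, none called. SIRT1, the nuclear deacetylase, read 8.64, 8.43 and 8.40 on the knockdown arrays of day 3, against 9.20, 8.82 and 9.28 on the control arrays, and fell by 0.61 (SE 0.20, adjusted p = 0.0357). It passed in 14 of 23 alternatives, and missed without any 1 of knockdown replicates 1, 2 or 3 or control replicates 1 or 3 of day 3, with an adjusted p of up to 0.109 in these fits.

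SIRT4, another mitochondrial sirtuin, read 7.98, 7.66 and 7.91 on the knockdown arrays of day 3, against 7.44, 7.28 and 7.60 on the control arrays, a rise of 0.41 (SE 0.15, adjusted p = 0.0471). The lowest knockdown array exceeded the highest control array by 0.06. This was the weakest of the 13 calls: it passed in 11 of 23 alternatives, with an adjusted p of up to 0.169 when 1 array was left out, and at day 2 the difference was -0.03. SIRT7, found in the nucleolus, gave -0.25 at day 2 and 0.21 at day 3, neither called. SIRT2 and SIRT3 were detected on no array and SIRT6 on 1.

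**Figure D3:**
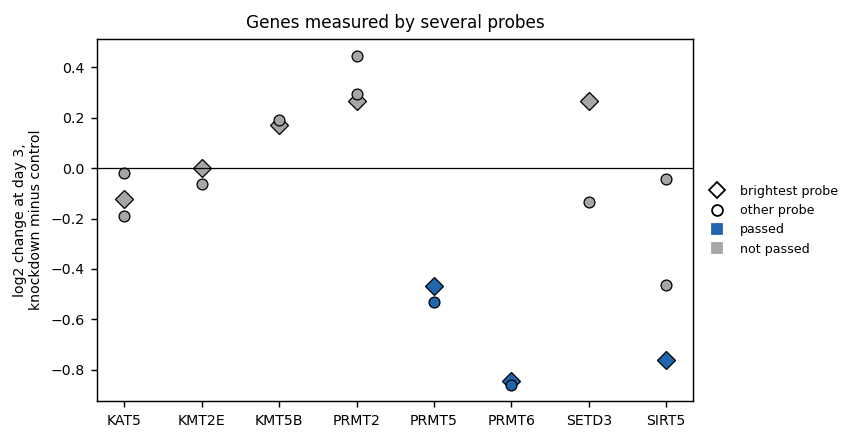
Day 3 change, knockdown minus control in log2 units, for each detected probe of the 8 members with several; diamonds are the brightest probe, circles the others, and blue marks an adjusted p under 0.05 with every kept probe tested on its own. Both probes of PRMT5 and of PRMT6 passed, SIRT5 passed with 1 of 3, and the SETD3 probes lie on opposite sides of 0.

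No member's knockdown effect differed between the days in the limma fit, where 2.32% of all genes did. At an unadjusted p under 0.05 there were 4 members: PRMT6 (day 3 effect minus day 2 effect -0.66, SE 0.22, adjusted p = 0.181), SIRT5 (-0.53, adjusted p = 0.366), HDAC2 (-0.53, adjusted p = 0.255) and SIRT4 (0.45, adjusted p = 0.403). The larger number of calls at day 3 is therefore not a shown difference between the days. Between knockdown cells of day 3 and of day 2, 0 members were called, where 5.79% of all genes were, and 5 had an unadjusted p under 0.05, all lower at day 3: KDM8, PRMT6, SIRT5, PRMT3 and KAT6A. Replicate numbers were taken to pair these arrays, though no label says what a number marks. With the number as a block in the fit the same 5 were called (adjusted p 0.0200 to 0.0466), where 15.3% of all genes were. Between control cells of day 3 and of day 2, 0 members were called, where 0.247% of all genes were, and 3 had an unadjusted p under 0.05 (KMT2A, KMT5A and HDAC2). These comparisons share arrays with the knockdown comparisons.

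Enzymes of the same kind under other names were counted from a list of 33, of which 23 were tested. None was called at day 2, and 5 had an unadjusted p under 0.05. At day 3, 4 were higher and 4 lower, with a median of -0.19. This share, 34.8%, was near the 29.6% of all genes. SMYD2, a lysine methyltransferase, read 8.50, 8.13 and 8.53 on the knockdown arrays of day 3, against 7.60, 7.13 and 7.42 on the control arrays, a rise of 1.00 (SE 0.20, adjusted p = 0.00229) that exceeded the change of any member. MECOM was at least 1.41-fold higher, being detected on no control array of day 3, PHF2 rose by 0.60 and NCOA1 by 0.53. The H3K36 methyltransferases NSD1 and NSD3 fell by 0.65 and 0.66, EHMT2 (G9a), which dimethylates H3K9, by 0.66 and the demethylase relative JMJD1C by 0.53. EZH2, the H3K27 methyltransferase, changed by -0.34 (adjusted p = 0.157), and the acetyltransferase EP300 by -0.08 and the arginine methyltransferase CARM1 by -0.19 were not called.

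Partners of the enzymes in their complexes, some of them enzymes of other kinds, were counted from a list of 98, of which 80 were tested. At day 2 none was higher and 3 were lower (JADE1, GSE1 and SAP18), and at day 3 there were 1 higher and 11 lower, with a median of -0.14. That was 3.75% of partners at day 2, where 8.66% of all genes were called, and 15% at day 3, where 29.6% were. The partner with the largest change was JADE1, a scaffold that directs KAT7 towards H4. It read 10.05, 10.25 and 9.52 on the knockdown arrays of day 2, against 10.80, 10.67 and 10.53 on the control arrays, a change of -0.73 (adjusted p = 0.0463). At day 3 it read 9.61, 9.97 and 9.33 on the knockdown arrays, against 10.96, 11.10 and 10.65 on the control arrays, a change of -1.27 (SE 0.21, adjusted p = 5e-04). JADE1 and KAT7 were thus both lower on both days. The other tested partners of the KAT6 and KAT7 complexes, 5 in number, were not called.

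WDR77 (MEP50), the obligate partner of PRMT5, read 7.98, 8.20 and 8.38 on the knockdown arrays of day 3, against 9.0, 8.90 and 8.91 on the control arrays, and fell by 0.75 (SE 0.14, adjusted p = 0.00120). PRMT5 and WDR77 were thus both lower at day 3. WDR77 was the 1 called of 4 tested PRMT5 partners, of which 1 had a positive change. Of 11 tested COMPASS partners, which serve the H3K4 methyltransferases, DPY30 fell by 0.73, PAGR1 by 0.63 and ASH2L by 0.42. NCOA6 rose by 0.98 (SE 0.17) and was the 1 partner called higher, while 28 of the 80 tested partners had positive changes. NCOA6 read 9.05, 8.94 and 9.24 on the knockdown arrays of day 3, against 7.88, 8.04 and 8.37 on the control arrays. In the HDAC1 and HDAC2 complexes, MTA3 fell by 0.87 and RBBP7 by 0.46, the 2 called of 9 NuRD partners, of which 4 had positive changes. SAP18 fell by 0.66 and ING2 by 0.46, the 2 called of 9 SIN3 partners. GSE1 fell by 0.67, the 1 called of 7 CoREST partners, whose median change was 0.00. RUVBL1 fell by 0.64, the 1 called of 10 TIP60 partners. None of 14 SAGA and ATAC partners, 6 MSL and NSL partners or 3 NCoR partners was called at day 3. Beside these counts for single complexes, 29.6% of all genes were called at day 3.

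**Figure D4:**
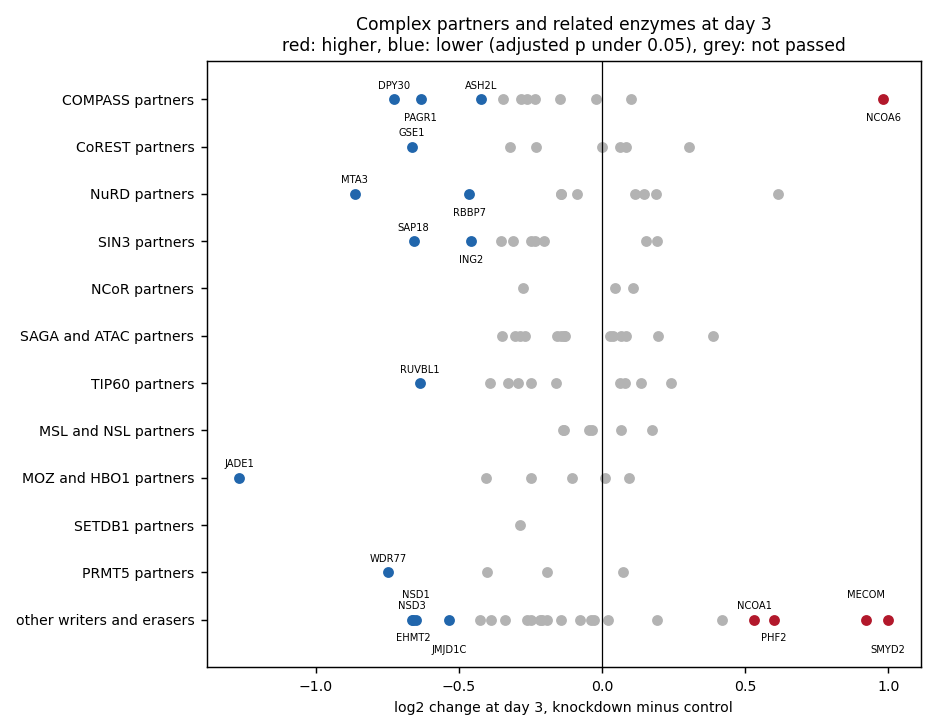
Day 3 change, knockdown minus control in log2 units, of tested complex partners and of other histone writers and erasers, 1 row per complex and 1 point per gene; red is higher and blue lower at an adjusted p under 0.05, and called genes are named. JADE1 at -1.27 and NCOA6 at 0.98 are the extremes among partners; MECOM was not detected on the control arrays of day 3 and TADA2A (a SAGA and ATAC partner) on no array of day 3, so their points are fitted values.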

How the data were processed

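Messenger RNA was measured on 12 Illumina bead arrays, grouped by the sample titles. The authors deposited probe intensity values on a linear scale for 48803 probes, with a detection p-value per probe and array, and no normalisation is recorded per the file headers. A separate deposited table holds the authors' log2 values. Compared with the intensities, they were log2 values after subtraction of 1 number for each array and 1 for each probe (remainder SD 1.71e-07, column medians -0.0146 to 0.0136); the samples behind the number for each probe are unknown. The sources used here name no scanner or software.

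Intensities were background-corrected from the detection p-values, given an offset of 16, quantile-normalised and put on the log2 scale (neqc, limma 3.58.1, R 4.3.3). Probes detected (p under 0.01) on at least 3 arrays were kept, 15407 in all. GEO's annotation of the array names exactly 1 gene for 28098 probes, more than 1 for 13 and no gene for 20692, and 28059 were matched to RefSeq by Entrez ID with 0 symbols changed. Levels of different probes were not compared with each other.

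All arrays entered 1 limma fit of 4 group means (8 residual degrees of freedom), with two-sided tests adjusted by Benjamini-Hochberg over 10506 genes. Tests on simulated data recovered their input. In the simulation of the limma fit, planted changes exceeded that of every called member and noise was independent between arrays. It therefore does not show how reliably changes of the members' size are called. Every member is named as called, not called or not tested, including those that change call without 1 array and those whose probes disagree, and array values are given for called members; KDM6A, SETDB1, HDAC1 and HDAC2, and the other enzymes and partners, were picked for array values after seeing them. The members and gene lists were chosen with earlier results of these data known. Where a group's arrays all lacked detection, a lower bound stands in the text in place of the fold, or no fold where the bound is under 1, while figures and medians use fitted values.

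Pairing by replicate number was checked as the correlation of deviations from group means, for replicates 1, 2 and 3: 0.482, 0.388 and 0.738 at day 3, 0.0225, 0.399 and 0.700 at day 2, 0.220, 0.599 and 0.724 between knockdown days, and 0.241, 0.214 and 0.667 between control days. All but day 2 exceeded 0.1, so numbers were taken to pair those arrays, though no label says what a number marks. The alternatives were other scaling, background, offset, detection and probe rules, the authors' values, the block, only the groups compared and each array left out.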

Additional observations from a re-analysis of the deposited data

How the results depend on the processing

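The count of 11 members lower at day 3 lay between 8 and 11 with 1 array left out, and was 8 under median scaling and 8 with the authors' values. The 2 members higher at day 3 became 0 without replicate 3 of every group, 1 with every kept probe tested on its own and 0 to 3 with 1 array left out (0 without knockdown replicate 1 or control replicate 1 of day 3). The 2 lower at day 2 became 1 among genes detected on all 12 arrays, where KAT7 was not tested, and 1 to 2 with 1 array left out. Between knockdown days the count of 0 became 1 with the mean of all kept probes (PRMT6) and 0 to 2 with 1 array left out (KAT6A and KDM8 without knockdown replicate 2 of day 2). With the replicate block, which takes arrays of the same number as paired, 4 members were higher and 15 lower at day 3. With it, 5 members changed between knockdown days. The block changed no call at day 2, for the difference between days or between control days. Small day 2 changes turned sign: PRMT3 ranged from -0.289 to 0.0357 with 1 array left out (positive without knockdown replicate 3), and SIRT4 was 0.0269 under median scaling, 0.0194 with the authors' values and -0.115 to 0.0574 with 1 array left out (positive without knockdown replicate 2 or control replicate 3). KAT7 (at both days), KDM8, PRMT6, KDM2B and SIRT5 (at day 3) passed in every alternative in which they were tested. Over all genes, the 910 calls at day 2 became 597 without control replicate 1 of day 2 and 1817 with the block. Signal over background limits KAT7, KDM8, KDM4C, KDM4D, KDM5C and HDAC8, and 18 members could not be tested. The causes of these shifts were not tested.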
